A study of Caenorhabditis elegans with 2 samples.

Results

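The genes described here encode the plexin, semaphorin, ephrin and Eph receptor proteins of the nematode Caenorhabditis elegans. They are 10 genes listed by name, out of 19973 nuclear protein-coding genes: the plexin genes plx-1 and plx-2, the semaphorin genes smp-1, smp-2 and mab-20, the Eph receptor gene vab-1, and the ephrin genes vab-2, efn-2, efn-3 and efn-4. Each was matched to its WBcel235 gene model. All peak summits within 5000 bp of the gene body, from the annotated start to the annotated end, were collected. The data are chromatin immunoprecipitation and sequencing (ChIP-seq) peaks of UNC-130, a forkhead transcription factor of the FoxD class. They come from whole L1 larvae of strain OP77, labelled as pooled male and female. The strain carries the mutation unc-119(ed3) III and the insertion wgIs77, which expresses UNC-130 fused to eGFP, and 2 biological replicates of this single group were given. The labels describe an immunoprecipitation of the fusion protein but name unc-130 as the antibody, and they do not say which cells express the transgene. The age of the larvae within the stage is listed as unknown. No control library was analysed here, so the design holds no contrast between conditions, and the results are descriptions without a test.

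Semaphorins and ephrins are cues on or outside cells, and plexins and Eph receptors are the membrane proteins that receive them. In C. elegans, SMP-1 and SMP-2 are transmembrane semaphorins that signal through PLX-1, and MAB-20 is a secreted semaphorin that signals through PLX-2. VAB-1 is the worm's Eph receptor tyrosine kinase, and its ephrin ligands are tethered to the membrane by a lipid anchor. Both systems are known for sorting and moving epidermal cells when the embryo is enclosed by epidermis and when the rays of the male tail form, and for guiding axons. UNC-130 is known from genetics for dorsoventral guidance of cells and axons through unc-129, which encodes a TGF-beta ligand, and for the fates of certain sensory neurons.

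The sequences that bear on the results are printed here, from the RefSeq copy of WBcel235 (ce11), plus strand, 5′ to 3′. The first is the whole peak upstream of plx-1, the highest peak near any of the 10 genes. The others are windows of 101 bases centred on the highest candidate summit near plx-2, vab-1, vab-2, efn-2 and efn-4. A pair of forkhead heptamers, TGTTTAC and TGTTTGC, was searched on both strands. Capitals mark a heptamer (GTAAACA and GCAAACA are the reverse complements), or, where the printed window holds neither, the single base at the summit.
plx-1, peak, chrIV:957952-958201: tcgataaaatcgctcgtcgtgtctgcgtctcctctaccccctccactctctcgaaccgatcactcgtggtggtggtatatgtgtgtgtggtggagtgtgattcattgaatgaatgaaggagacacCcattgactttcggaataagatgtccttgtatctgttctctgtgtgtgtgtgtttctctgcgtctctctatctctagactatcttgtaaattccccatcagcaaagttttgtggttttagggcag
plx-2, candidate, chrII:14413208-14413308: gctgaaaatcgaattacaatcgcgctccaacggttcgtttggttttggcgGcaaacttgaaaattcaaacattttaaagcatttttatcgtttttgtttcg
vab-1, candidate, chrII:4580828-4580928: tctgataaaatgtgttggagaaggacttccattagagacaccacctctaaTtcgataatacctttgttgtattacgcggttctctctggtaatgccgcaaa
vab-2, candidate, chrIV:3763010-3763110: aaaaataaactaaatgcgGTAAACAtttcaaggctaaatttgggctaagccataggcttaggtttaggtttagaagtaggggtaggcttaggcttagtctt
efn-2, candidate, chrIV:10572691-10572791: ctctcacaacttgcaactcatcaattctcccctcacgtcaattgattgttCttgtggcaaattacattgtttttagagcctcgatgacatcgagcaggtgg
efn-4, candidate, chrIV:572803-572903: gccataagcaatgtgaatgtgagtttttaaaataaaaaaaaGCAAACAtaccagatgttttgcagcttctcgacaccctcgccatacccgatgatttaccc
The next windows, also of 101 bases, are lower candidates near vab-1, vab-2 and efn-4 that hold a heptamer within 50 bp of the summit.
vab-1, intron near the 5′ end, chrII:4572194-4572294: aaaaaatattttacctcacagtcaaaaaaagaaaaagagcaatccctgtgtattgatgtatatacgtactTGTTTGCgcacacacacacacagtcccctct
vab-1, later intron, chrII:4580120-4580220: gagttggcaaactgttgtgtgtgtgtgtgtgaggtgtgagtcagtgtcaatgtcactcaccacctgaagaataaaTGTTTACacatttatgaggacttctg
vab-2, past the 3′ end, chrIV:3756781-3756881: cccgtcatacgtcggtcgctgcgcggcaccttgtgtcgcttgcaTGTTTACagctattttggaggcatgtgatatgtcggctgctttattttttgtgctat
efn-4, near the 5′ end, chrIV:559308-559408: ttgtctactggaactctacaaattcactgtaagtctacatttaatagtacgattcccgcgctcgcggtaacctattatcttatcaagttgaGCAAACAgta
efn-4, intron, chrIV:563319-563419: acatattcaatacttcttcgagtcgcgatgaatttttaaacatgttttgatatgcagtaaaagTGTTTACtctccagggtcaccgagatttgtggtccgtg

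Peaks were deposited in lists. The pooled list, called on both replicates together, holds 30000 peaks and background regions before thresholding, here called candidates. The list of replicate 1 holds 30000 and that of replicate 2 holds 25234. The optimal list holds the 2631 pooled peaks that passed the authors' test of irreproducible discovery rate, and these equal the 2631 highest of the pooled list. Each peak carries a signal value from the authors' peak caller, which was used only to rank peaks within a list, so that rank 1 is the highest. Read numbers were not given, so the depth behind a rank is unknown, and a peak absent from a list is only not listed. At the targeted locus, 6 optimal summits lay within 5000 bp of unc-130, the highest at rank 96. Whether DNA of the transgene adds to the signal there was not tested.

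Of the 10 genes, 3 had an optimal summit within 5000 bp: plx-1, smp-1 and smp-2, with 1 summit each. All 3 summits lay upstream of the gene, outside any other annotated gene, and the nearest 5′ end of a protein-coding gene was in each case that of the member. The share of 30.0% equals the background, since 5999 of the 19973 protein-coding genes (30.0%) had an optimal summit within the same distance. Among the 12417 genes whose body length falls within the range of the members (1581 to 24875 bp), 32.6% had one. The count is therefore not a result about the family as a whole. Neither plx-2, mab-20, vab-1 nor any ephrin gene had one.

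The share of all protein-coding genes with an optimal summit also differed with position along the chromosome. Whether position affected the members' count was not tested. The middle of the gene body lay in the outer 25% at either end of its chromosome for 8 of the 10 genes, all but vab-1 and efn-2, against 44.7% of all protein-coding genes. Of genes in these outer parts, 23.9% had an optimal summit within 5000 bp, and of those in the middle 50%, 35.0%. All 3 members with one lay in the outer parts.

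For none of the 10 genes did an optimal summit lie close to the distance limit. The farthest counted summit was 1444 bp from its gene body, at plx-1, and the nearest one not counted was 12270 bp from vab-1. The nearest optimal summit stood 16451 bp from plx-2, 25195 bp from mab-20, 26896 bp from efn-3, 35149 bp from vab-2, 39626 bp from efn-4 and 63488 bp from efn-2. For the genes with a counted summit, the next one beyond 5000 bp stood 17379 bp from smp-1, 28227 bp from plx-1 and 29771 bp from smp-2. The vab-1 and plx-2 loci were thus the closest to a peak among the 7 genes without one.

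**Figure D1:**
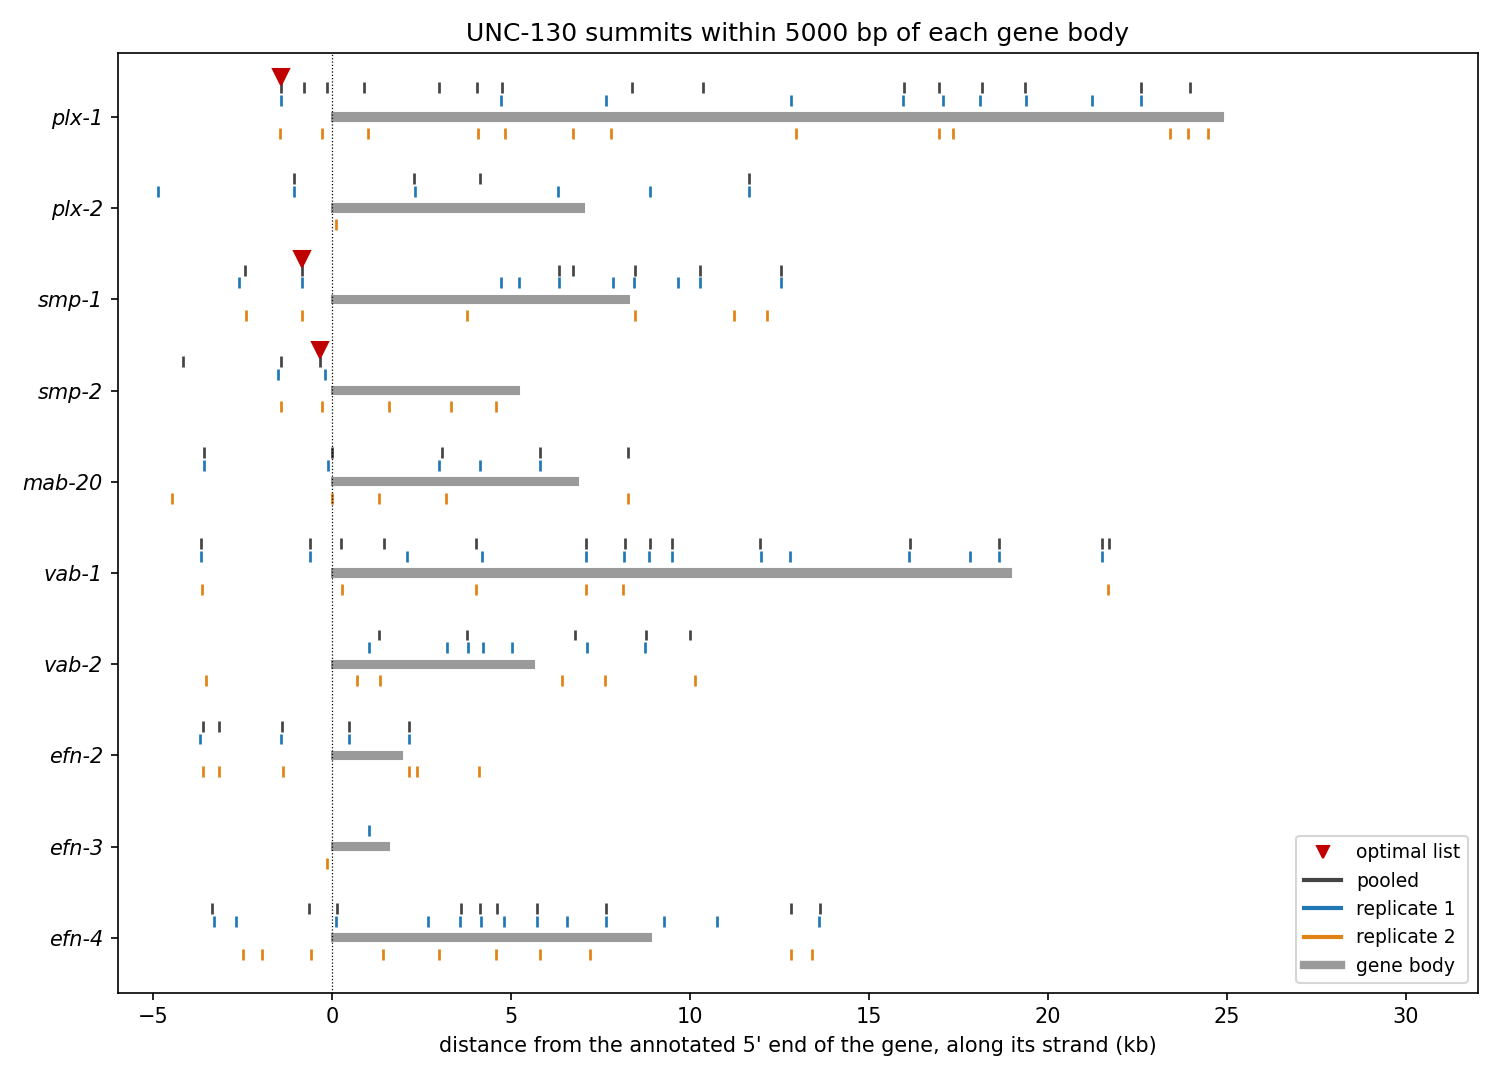
Summits within 5000 bp of each gene body, by distance from the annotated 5′ end along the strand of the gene (kb). Ticks are summits of the pooled list (black), replicate 1 (blue) and replicate 2 (orange), red triangles are optimal summits and grey bars are gene bodies; the 3 triangles, at plx-1, smp-1 and smp-2, all stand upstream of the 5′ end.

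The plexin receptor genes differed in their highest summit. The peak of plx-1 (WBGene00004047, chromosome IV 959521 to 984395, plus strand) covered 957952 to 958201, with its summit 1444 bp upstream of the 5′ end. Its signal was 46.4 in the pooled list, where it ranked 816 of 30000. In replicate 1 the summit at 958078 had a signal of 23.9 and ranked 1160, and in replicate 2 the summit at 958071 had a signal of 17.2 and ranked 1199. Both replicates thus placed it at nearly the same height in their own lists, with summits 7 bp apart.

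Ranks of the 2 replicates can be set side by side as percentiles of signal among the 2566 optimal peaks (97.5% of 2631) that overlapped a listed peak of both replicates by at least 1 bp, with 100 the highest. The optimal list was derived from these replicate lists, so that overlap is not independent of it. The plx-1 peak stood at percentile 56.1 in replicate 1 and 57.2 in replicate 2, or 56.7 ± 0.772 (SD, n = 2). The median SD over the 2566 peaks was 17.3, and 3.66% of them had an SD as small as that of plx-1 or smaller. Between replicate summits the median gap was 21 bp (quartiles 8 and 47), and 23.6% of the peaks had a gap of 7 bp or less. By the pair of percentiles, the most similar peaks assigned to other genes within 2000 bp of a 5′ end were those of mans-1, cgh-1 and lact-7, at distances of 0.585, 1.35 and 1.53 percentile points over the 2 replicates.

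Along its body plx-1 had more candidates, all of low rank. Within 5000 bp the pooled list held 15 summits, replicate 1 held 10 and replicate 2 held 13. After the optimal peak the highest pooled candidate ranked 7093 and lay in a coding exon, 4751 bp downstream of the 5′ end and 51 bp from the start of a shorter annotated transcript of plx-1. It overlapped peaks at ranks 13123 and 7958 in replicates 1 and 2, whose summits were 95 bp apart. Only 1 other low candidate, at rank 13781, also overlapped a peak of both replicates.

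The plx-2 gene (WBGene00004048, chromosome II 14417855 to 14424891, minus strand), whose product is the receptor of MAB-20, had 4 pooled candidates. The highest, at rank 5639 and signal 12.7, lay 4597 bp past the 3′ end of plx-2, inside the neighbouring gene exl-1 and 217 bp from its 5′ end. It overlapped a peak at rank 4136 in replicate 1 and none in replicate 2. Replicate 2 listed a single summit in the whole window, 100 bp downstream of the 5′ end at rank 11645. None of the 4 candidates overlapped a peak of both replicates.

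**Figure D2:**
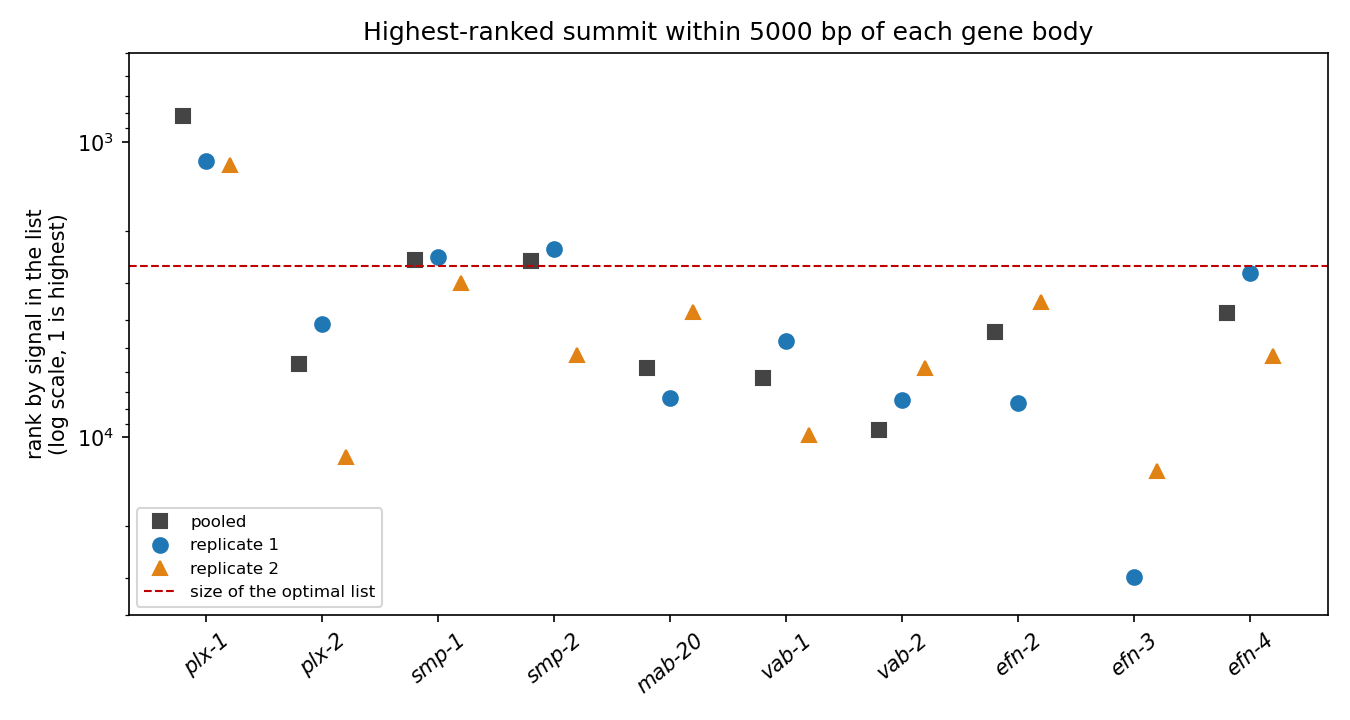
Rank by signal of the highest summit within 5000 bp of each gene body in the pooled list (squares), replicate 1 (circles) and replicate 2 (triangles), on a log axis with the highest at the top; the dashed line is the size of the optimal list, 2631. Only plx-1 lies above the line in all 3 lists, smp-1 and smp-2 lie above it in the pooled list and replicate 1, and efn-3 has no pooled summit. The symbols of a gene need not be the same site.

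Both transmembrane semaphorin genes had an optimal peak close to the end of that list. The peak of smp-1 (WBGene00004889, chromosome I 14807462 to 14815753, plus strand) covered 14806489 to 14806738, 848 bp upstream of the 5′ end at the summit. Its pooled signal was 24.3 and its rank 2507 of the 2631 optimal peaks, the lowest of which had a signal of 23.5. The replicates gave it signals of 14.8 and 9.79 and ranks of 2445 and 3000, with summits 13 bp apart. Its percentile was 21.0 in replicate 1 and 20.1 in replicate 2, or 20.6 ± 0.634 (SD, n = 2). The replicates therefore placed this low peak alike.

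The peak of smp-2 (WBGene00004890, chromosome I 3666490 to 3671700, minus strand) covered 3671904 to 3672153, and its summit was 329 bp upstream of the 5′ end. Its pooled signal of 24.2 gave rank 2531. Replicate 1 had a signal of 15.4 at rank 2301 and replicate 2 had 5.74 at rank 5884, and their summits lay 200 and 280 bp upstream. The percentiles were 23.8 and 6.08, or 14.9 ± 12.5 (SD, n = 2). This peak thus stood lower in replicate 2 than in replicate 1, with an SD below the median SD of 17.3 over optimal peaks. Its replicate summits were 80 bp apart, above the upper quartile of 47 bp over optimal peaks found in both replicates.

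Without replicate 1, among the 2631 highest peaks of replicate 2, only plx-1 of the 10 genes kept a summit within 5000 bp, where 27.9% of all protein-coding genes had one. Without replicate 2, among the 2631 highest of replicate 1, plx-1, smp-1 and smp-2 all had one, with a background of 30.5%. The overlapping peaks of smp-1 and smp-2 ranked 3000 and 5884 in replicate 2, below its 2631 highest peaks. In the top 50% of the optimal list only plx-1 had a summit, where 18.1% of all protein-coding genes had one.

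**Figure D3:**
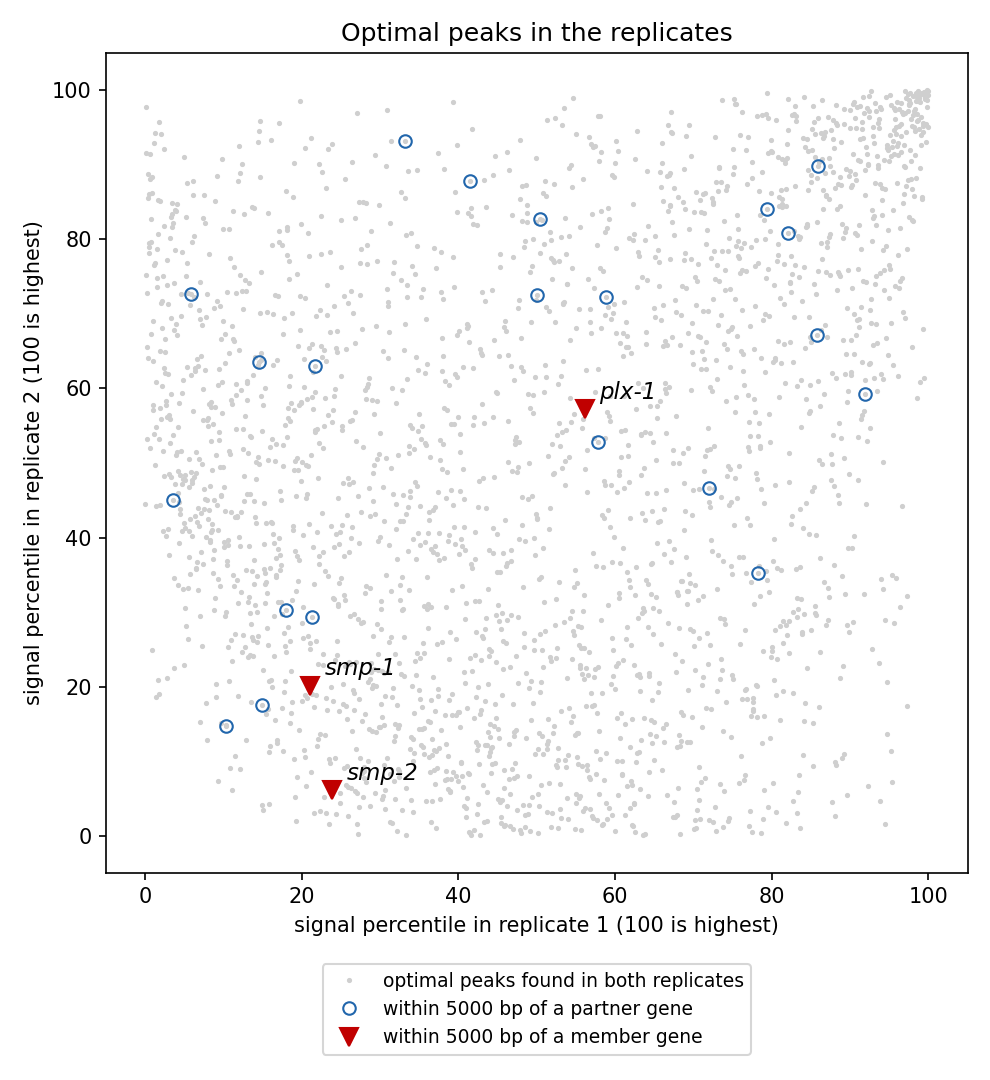
Signal percentile in replicate 1 (x axis) against replicate 2 (y axis) of the 2566 optimal peaks found in both (grey), with peaks near the 10 genes (red triangles) and near 13 partner genes (blue circles). The plx-1 and smp-1 peaks lie near equal percentiles, and that of smp-2 is lower in replicate 2.

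Below the threshold, smp-1 had 6 further pooled candidates and smp-2 had 2. At smp-1 a candidate at rank 5946 lay 2441 bp upstream, and one at rank 5927 lay in a coding exon 6325 bp downstream of the 5′ end. The first overlapped peaks of both replicates at ranks 16104 and 4112, with summits 174 bp apart. At smp-2 a candidate at rank 6403, 1436 bp upstream, overlapped peaks of both at ranks 18890 and 7055.

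The gene of the secreted semaphorin, mab-20 (WBGene00003111, chromosome I 1644588 to 1651457, minus strand), had its highest pooled candidate at its start. The summit lay in the 5′ untranslated region, 2 bp downstream of the annotated 5′ end, with a signal of 12.4 at rank 5824. In replicate 2 a summit at the same base ranked 3757 with a signal of 8.14, while the overlapping peak of replicate 1 ranked 16159 with a signal of 5.08 and had its summit 114 bp upstream. The replicates thus differed widely in rank at this site. A candidate at rank 20948, in a coding exon 50 bp from the start of a shorter mab-20 transcript, ranked 7350 and 6266 in the replicates but their summits were 196 bp apart.

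The Eph receptor gene vab-1 (WBGene00006868, chromosome II 4572000 to 4590970, plus strand) had 14 pooled candidates, next to plx-1 in number, and no optimal peak. Its body is 18971 bp long, the second longest of the 10. The highest candidate, at rank 6316 and signal 11.6, lay in an intron 8878 bp downstream of the 5′ end. It overlapped a peak of replicate 1 at rank 4758 and none of replicate 2. Of the 14, 6 overlapped peaks of both replicates, of which 2 near the neighbouring gene ipla-1 overlapped the same replicate peaks. Among these 6 the candidate 3662 bp upstream of vab-1 had the highest pooled rank, 7892, with ranks of 14331 and 9829 in the replicates and summits 23 bp apart.

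Among the ephrin ligand genes, efn-4 had the highest candidate and efn-3 had none. The highest near efn-4 (WBGene00001165, chromosome IV 559234 to 568147, plus strand) ranked 3788 with a signal of 17.7, but it lay 4706 bp past the 3′ end, inside gex-2 and 84 bp from that gene's 5′ end. The gex-2 product is a subunit of the actin-regulating WAVE complex. The site ranked 2783 in replicate 1 and 7563 in replicate 2, with summits 184 bp apart. Within the introns of efn-4 itself the highest candidate ranked 6784, 5726 bp downstream of the 5′ end, with replicate ranks of 23976 and 21631.

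At efn-2 (WBGene00001163, chromosome IV 10576350 to 10578288, plus strand) the highest of 5 candidates ranked 4412 with a signal of 15.4, 3609 bp upstream of the 5′ end. No other protein-coding gene had a nearer 5′ end. Its replicate ranks were 7683 and 3480, with summits 81 bp apart, and a second site 1405 bp upstream ranked 12064, with replicate ranks of 16917 and 9467. The efn-2 site is the highest candidate below the threshold, among the 7 genes without an optimal peak, that is nearest to its own gene.

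The vab-2 gene (WBGene00006869, chromosome IV 3761195 to 3766826, minus strand), which encodes the ephrin also called EFN-1, had 5 candidates. The highest ranked 9421 with a signal of 9.12, in an intron 3766 bp downstream of the 5′ end, and overlapped a peak at rank 8451 of replicate 1 and none of replicate 2. None of the 5 overlapped peaks of both replicates. At efn-3 (WBGene00001164, chromosome X 13475876 to 13477456, minus strand), the shortest of the 10 genes, the pooled list held no summit within 5000 bp. Replicate 1 listed a single summit there, in a coding exon at rank 29613, and replicate 2 a single one, 138 bp upstream at rank 12982.

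Taken as a set, the 10 genes were near the background in the share with a candidate and in the overlap of candidates between replicates. A pooled candidate lay within 5000 bp of 9 of the 10 genes, against a background of 92.3%. There were 68 pooled, 72 replicate 1 and 59 replicate 2 summits. Of the 68, 22 (32.4%) overlapped a listed peak of both replicates, against 31.0% of all 30000 pooled candidates. The median number of pooled summits per gene was 5, against 4 over all protein-coding genes and 4 over genes in the members' length range. Per kb of body plus window the median was 0.351, against 0.274 over all protein-coding genes. The median body length was 6954 bp against 2027 bp. The median of the highest pooled rank was 4412 over the 9 members with a candidate and 4829 over genes in the members' length range. Of the 68 summits, 22 lay in introns, 17 upstream, 14 in coding exons, 13 downstream and 2 in untranslated regions. For 23 of them the nearest 5′ end belonged to another protein-coding gene.

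Of the 3 optimal peaks, that of smp-2 held a forkhead heptamer within 50 bp of the summit and those of plx-1 and smp-1 did not, against a background of 10.6% of optimal peaks. In the smp-2 peak it was TGTTTAC on the minus strand, overlapping the summit base of the pooled list. The smp-2 summits of replicates 1 and 2, at 200 and 280 bp upstream of the 5′ end, had no whole heptamer within 50 bp. TGTTTAC alone lay at 2.24% of optimal summits and TGTTTGC at 8.59%. The whole plx-1 peak printed above holds neither heptamer. Among the 68 pooled candidates, 9 (13.2%) held a heptamer within 50 bp, against 4.21% of all pooled candidates: 3 near efn-4, 2 each near vab-1 and vab-2, and 1 each near smp-2 and mab-20. That near smp-2 is the optimal peak already counted. The lower vab-2 candidate lay inside the neighbouring gene best-20, 610 bp from its 5′ end, and the highest efn-4 candidate inside gex-2. The one at the highest efn-4 candidate was GCAAACA, whose centre is 6 bp from the summit, and that at the highest vab-2 candidate was GTAAACA, 29 bp away. The count rests on 9 windows, and heptamer matches are descriptions of these letters, not of binding.

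A list of 25 partner genes, whose products act with or downstream of these receptors, was examined in the same way. The list was written with earlier results of these data known, so its share is not an independent comparison with the background. Of these, 13 (52.0%) had at least 1 optimal summit within 5000 bp, 21 summits in all, beside the 30.0% background. The partner genes are long, with a median body of 9030 bp, and the part of length in this share was not tested. Each summit was then given only to the protein-coding gene with the nearest 5′ end, if that end lay within 5000 bp. Under this rule 7 partner genes and 3 members kept one, where 10.7% of protein-coding genes did. The ptp-3 peak, 6679 bp from the 5′ end of ptp-3, lay beyond this limit. A summit equally far from the 5′ ends of unc-60 and F53E2.2 was counted for F53E2.2. All 21 peaks overlapped a listed peak of both replicates, against 97.5% of all optimal peaks. Of the 21, 3 held a heptamer within 50 bp of the summit, against 10.6% of all optimal peaks.

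Several partner genes had a peak just upstream of their own 5′ end. That of gcn-1, a translation regulator gene linked to plexin signalling, ranked 278 at 272 bp upstream, with percentiles of 91.9 and 59.3 (75.6 ± 23.1, SD, n = 2). That of gex-3, of the WAVE complex, ranked 416 at 115 bp upstream, at percentile 76.4 ± 13.2 (SD, n = 2). The netrin receptor gene unc-40 had one at 295 bp upstream (rank 719), and sdn-1, which encodes syndecan, one at 847 bp upstream (rank 2379). These peaks lie nearest to the 5′ end of the gene named.

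Among the remaining peaks of partner genes, many lay in an intron or nearer to the 5′ end of a neighbour. The Rac activator gene unc-73 had an intron peak at rank 905 and a second peak, at rank 2060, that lay 71 bp from the 5′ end of the muscle gene unc-89. The phosphatase receptor gene ptp-3 had an intron peak at rank 1509, where the percentiles were 5.85 and 72.6. The WAVE gene wve-1 had peaks at ranks 371 and 737. The first lay 640 bp upstream of wve-1 and 609 bp from the 5′ end of R06C1.4, and the second was also nearer to R06C1.4. The kinase gene pak-1 had 4 peaks, the most of the list, at ranks 382, 755, 1858 and 2575, of which the second was nearest to pak-1 itself, 1747 bp upstream.

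The kinase gene mig-15 had peaks at ranks 1250 and 2335, the first 164 bp from the 5′ end of cdk-11.2 and the second 2371 bp upstream of mig-15, the gene with the nearest 5′ end. The GTPase gene rap-2, which acts with PLX-1 and mig-15 in the tiling of synapses, had one at rank 862, 37 bp from the 5′ end of C25D7.15. The cofilin gene unc-60 had a peak at rank 1101, nearest to C38C3.4, and another at rank 1502. The summit of the latter lay 3334 bp from the 5′ ends of both unc-60 and F53E2.2. The adaptor gene nck-1 had one at rank 591 past its 3′ end, nearest to ZK470.4. The gene unc-33, which encodes a CRMP protein, had an intron peak at rank 1081, nearest to the 5′ end of M57.2. A second gcn-1 peak, in an intron, ranked 1877. The 12 partner genes with no optimal summit in the window were sax-3, lad-2, kal-1, ced-10, mig-2, rac-2, unc-34, wsp-1, gex-2, abl-1, efa-6 and daf-18, among them the Rac genes and lad-2, an L1CAM gene that acts with MAB-20 and EFN-4.

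**Figure D4:**
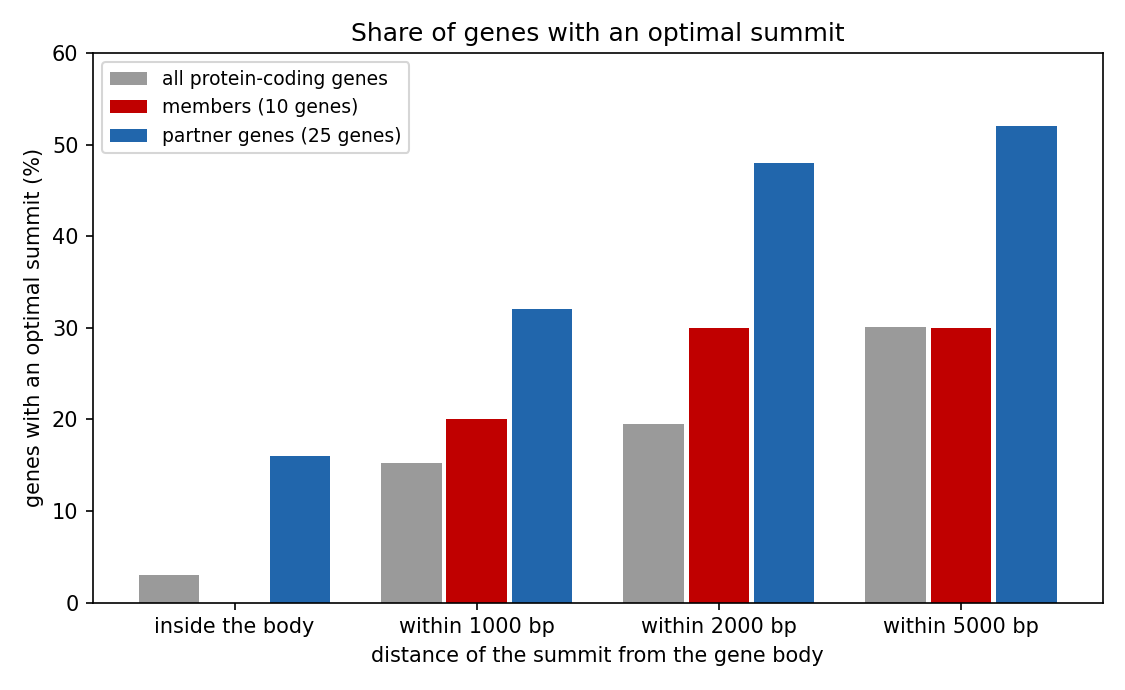
Share of genes (y axis, %) with an optimal summit inside the gene body or within 1000, 2000 or 5000 bp of it (x axis), for all 19973 protein-coding genes (grey), the 10 members (red) and the 25 partner genes (blue). The members' share is 0 inside the body and 30.0% within 2000 bp, where the background is 19.5%, and it equals the background within 5000 bp.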

How the data were processed

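Peaks came from 2 biological replicates of 1 group, with a fragment size range of 150 to 350 bp per the labels. The authors deposited narrowPeak lists with a signal value per peak and a q-value on a −log10 scale, per the file layout; the latter is equal for all optimal peaks (3.72) and was not used. Per the deposited notes, the pooled and replicate lists were the input of the optimal list. For the aligner, the peak caller and the cut-off, names and versions were not given in the sources used here. The ce10 lists were not used here. Coordinates are ce11, count from 1, and no peak ran past a WBcel235 chromosome end.

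Gene models came from Ensembl release 115. A summit is column 2 plus column 10 of a list. Peaks were ranked by signal within a list and matched between lists by at least 1 bp, taking the highest match. A gene's 5′ end is its outermost annotated one. All 10 members were named, with every partner gene that had an optimal summit. The members, the partner list and the alternatives were chosen with earlier results of these data known. No test was run, since the design has a single group. Python 3.11.15, pandas 2.3.3 and numpy 2.4.6 were used, and the functions were tested on simulated data.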

Additional observations from a re-analysis of the deposited data

How the results depend on the processing

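Within 1000 bp of the gene body 2 members (smp-1 and smp-2) and 8 partner genes had an optimal summit, against 15.2% of all protein-coding genes. Inside the body 0 members, 0 summits and 4 partner genes did, against 3.03% of all. In the top 50% of the optimal list 1 member with 1 summit and 11 partner genes were left, against 18.1% of all. Leaving out a replicate gave between 1 and 3 members and between 1 and 3 summits, the lower number without replicate 1, and between 12 and 14 partner genes, against 27.9% of all genes without replicate 1 and 30.5% without replicate 2. With each summit given only to the gene with the nearest 5′ end, within 5000 bp, 3 members and 7 partner genes had one, against 10.7% of all. Of the 3 optimal peaks near members, 1 (plx-1) lay among the 2631 highest of both replicates. Those of plx-1 and smp-1 (2 peaks), but not that of smp-2, overlapped a peak of both by at least 50% of their width. Among all listed peaks of a replicate the percentile of the plx-1 peak was 95.7, because those lists also hold background, and leaving out a replicate gave between 56.1 and 57.2. The remaining alternatives (2000 bp, peaks at short non-coding RNA genes left out, other motif windows) stayed within 1.5 times of each count. No paired analysis was possible because the samples form 1 group and no test was run. Read depth was not given, so whether a low rank reflects depth was not tested.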
